A study of Mus musculus with 4 samples.

Results

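Rab genes encode small GTPases that mark the membrane compartments of the cell. They were taken by name, as every protein-coding gene of the mouse annotation (GENCODE M21, GRCm38) whose symbol is Rab followed by a number and at most a letter and a digit. This gave 59 genes, of which 56 were analysed among 26561 genes in all, and Rab9b, Rab19 and Rab26 were not analysed here. RNA-seq counts came from wild-type MC38 cells, a mouse colon adenocarcinoma line, in 2 libraries of unirradiated cells and 2 of cells given a single 30 Gy dose of X-rays, with RNA taken 60 h later. The sources used here give no harvest time for the unirradiated cells, so irradiation and time or density in culture cannot be told apart. Separate cultures are not stated either, and each p-value below measures only how far these libraries spread, which may be technical.

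A Rab protein cycles between a GDP-bound form in the cytosol and a GTP-bound form on a membrane. Exchange factors switch it on, GTPase-activating proteins switch it off, and effectors that recognise the GTP form move, tether or fuse the vesicle. Geranylgeranyl transferase and its escort proteins add the lipid tail that anchors the protein, and GDP dissociation inhibitors lift it off the membrane again. Rab5 proteins are the classic marks of early endosomes, Rab11 of recycling endosomes, Rab7 of late endosomes and lysosomes, Rab1 and Rab6 of the endoplasmic reticulum and Golgi, and Rab3 and Rab27 of vesicles bound for the surface. The members are grouped below by such textbook roles, although many act at more than 1 place.

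Library totals ran from 26059171 to 29881492 counts. More genes had a count above 0 in the irradiated libraries (22713 and 22663) than in the unirradiated ones (19413 and 19531). The labels call the cells epithelial, and the defining epithelial markers Epcam and Krt18 were near 0. Of 6 epithelial markers, E-cadherin (Cdh1) averaged 35.4 CPM (counts scaled to 1000000 per library) before and 70.4 CPM after irradiation, but Epcam averaged 0 and 0.0188 CPM and Krt18 0 and 0.0901 CPM. The 6 mesenchymal markers summed to 5307 to 5336 CPM before and 5905 to 5962 CPM after. Of these, 4 rose, among them fibronectin (Fn1, from a mean of 166 to 1306 CPM), and 1 fell, the filament vimentin (Vim, from 4280.2 to 3570.5 CPM). Summed over 5 leukocyte markers, the level was near 0, at 0.206 to 0.4 CPM before and 0.873 to 0.942 CPM after. For 4 endothelial markers it was 1.92 to 2.58 CPM before and 6.22 to 6.56 CPM after.

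Rab genes moved in both directions after irradiation, and mostly by little. Of the 49 members that passed the filter on low counts, 14 rose, 15 fell and 20 did not pass at an adjusted p under 0.05 (edgeR's quasi-likelihood test, Benjamini-Hochberg over 15298 genes). Over all genes tested 60.7% were called, 30.4% higher and 30.3% lower, so the share called among Rab genes (59.2%) was near the background. The median log2 difference, irradiated over unirradiated, was 0.013 in the members and 0.012 in all genes. A call with at least 1.5-fold change was made for 9 members (18.4%) and for 28.2% of all genes.

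The 2 irradiated libraries lay both above or both below the 2 unirradiated ones in 41 of the 49 tested members (83.7%), among them all 29 called ones, and in 78.4% of all genes tested. The call held in 23 of the 29 when any 1 library was left out. Rab1a, Rab5a, Rab24, Rab33a, Rab36 and Rab43 lost it in at least 1 such fit, with values given below. In a bulk sample, fewer cells of a kind and less RNA per cell cannot be told apart. Values in brackets are the log2 difference, irradiated over unirradiated, with its SE after ±. Before and after stand for the unirradiated and the irradiated libraries, replicate 1 first.

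**Figure D1:**
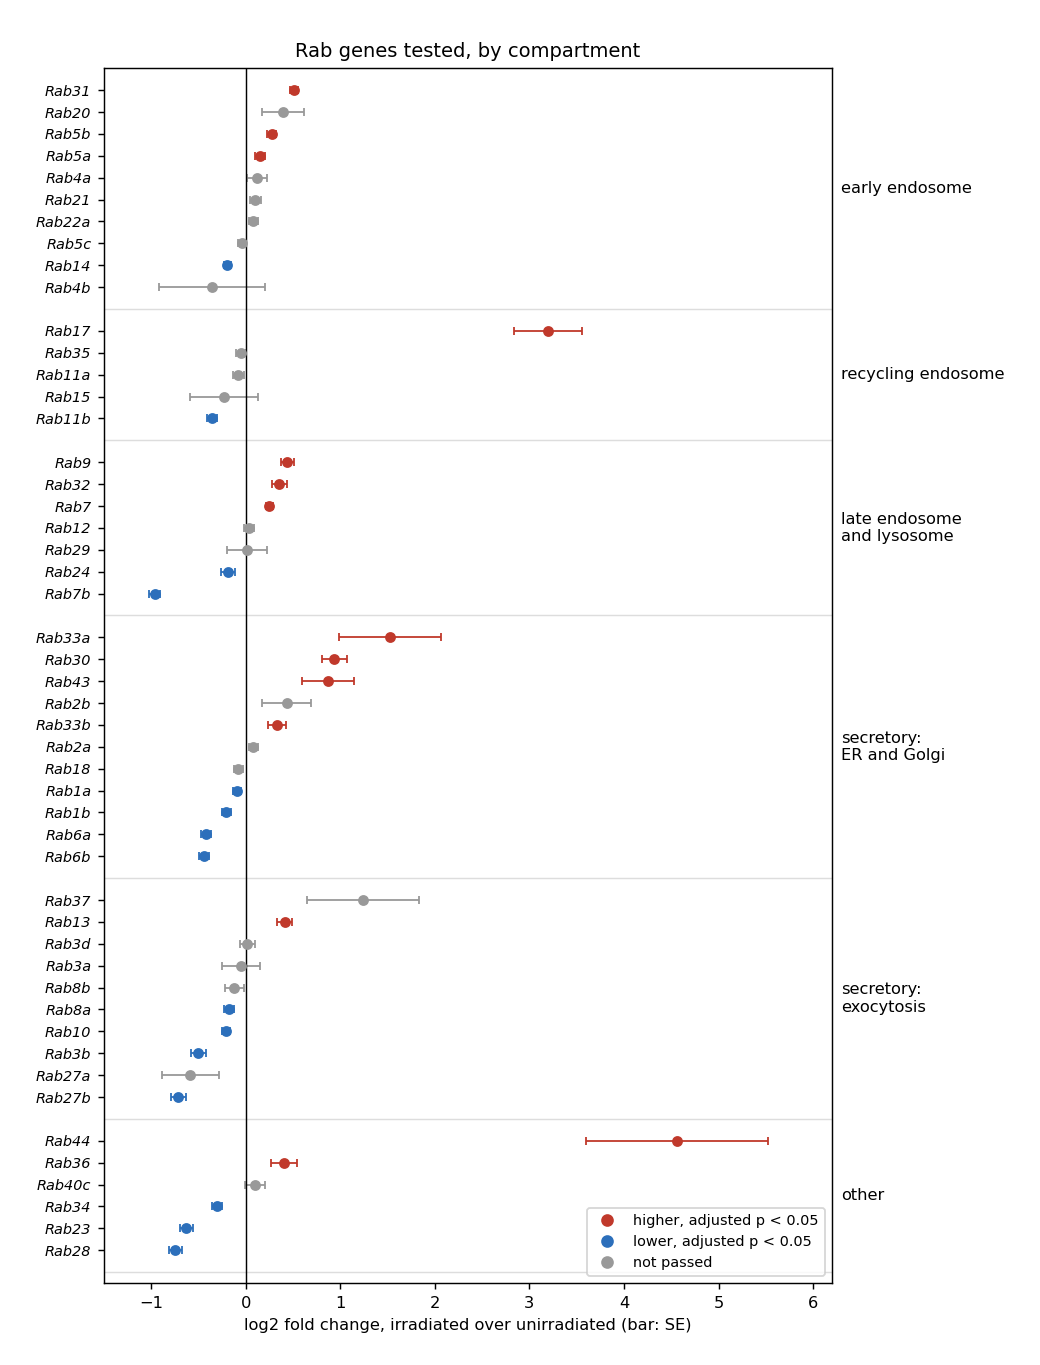
Log2 fold change of each tested Rab gene, irradiated over unirradiated (point; the bar is the SE), by compartment, with red for higher, blue for lower and grey for not passed. Rab17 at 3.20 and Rab44 at 4.56 lie far to the right, and Rab7b at -0.96 is the lowest.

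Calls among abundant members were mostly falls and those among scarce members were rises, a difference that was not tested. Of 24 tested members with a mean of at least 50 CPM, 12 fell and 4 rose. Of 10 below 5 CPM, 4 rose and 0 fell. This count is a description only, because Rab44, 1 of those that rose, entered the test only through its irradiated libraries. All genes showed a like pattern: 48.4% of the abundant ones fell and 31.2% rose, whereas 6.84% of the scarce ones fell and 31.7% rose. The number of genes detected moved with irradiation as well, and its part in the rise of scarce members was not tested.

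**Figure D2:**
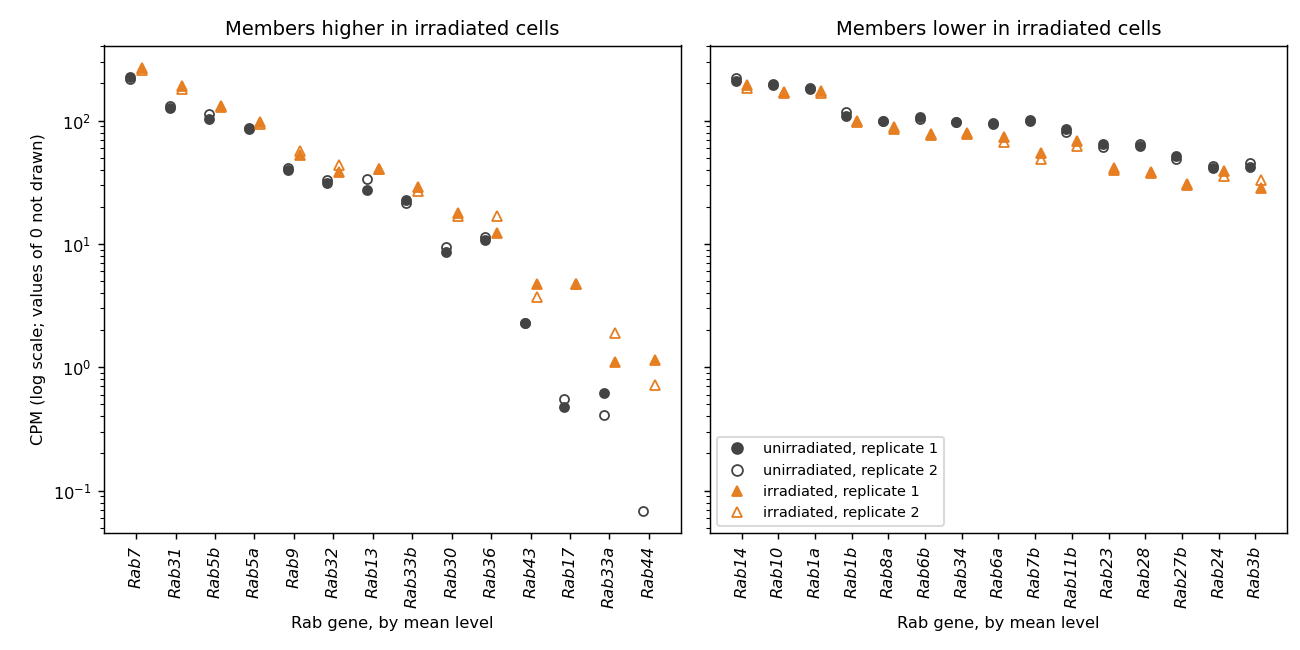
CPM of each called Rab gene in each library, on a log axis (circles, unirradiated; triangles, irradiated; filled, replicate 1; open, replicate 2; the 0 of Rab44 is not drawn). Members that fell sit at 28.5 CPM or more in every library, whereas members that rose reach down to 0.0685 CPM.

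Early endosome genes changed by small amounts. Of 10 tested, 3 rose, 1 fell and 6 did not pass, with a median log2 difference of 0.11 and no call at 1.5-fold. Of all genes tested, 30.4% rose, 30.3% fell and 28.2% had a call at 1.5-fold. The stretches before the start of 5 genes are printed first. They were picked after the values were seen, as 4 early or late endosome genes that rose and Rab21, which did not pass but holds the same element as Rab5a. Rab5b and Rab32, which also rose, and those that fell (Rab14, Rab7b and Rab24) are not shown. The printed stretches are RefSeq sequence (GRCm38.p6), 5′ to 3′ on the gene's own strand up to the base before the RefSeq start. Capitals mark TCACGTGA, the palindromic core of the element bound by the lysosomal regulator TFEB.
Rab5a, chr17:53479114-53479233, plus strand: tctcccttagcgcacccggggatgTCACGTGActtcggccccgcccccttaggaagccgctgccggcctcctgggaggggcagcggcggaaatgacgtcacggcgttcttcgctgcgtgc
Rab21, chr10:115315592-115315691, minus strand: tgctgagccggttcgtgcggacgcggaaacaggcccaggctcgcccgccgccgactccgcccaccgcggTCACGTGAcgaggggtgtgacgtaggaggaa
Rab31, chr17:65772753-65772852, minus strand: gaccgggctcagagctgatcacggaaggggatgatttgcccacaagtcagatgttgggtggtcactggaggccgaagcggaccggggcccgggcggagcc
Rab7, chr6:88045271-88045370, minus strand: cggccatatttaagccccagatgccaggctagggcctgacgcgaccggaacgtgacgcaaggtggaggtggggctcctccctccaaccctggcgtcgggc
Rab9, chrX:166479868-166479967, minus strand: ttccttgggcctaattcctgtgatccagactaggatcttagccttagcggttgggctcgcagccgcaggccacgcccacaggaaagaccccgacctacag

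RefSeq windows from 250 bases before to 50 after a start were found for 48 of the 59 Rab genes by symbol, with 60 windows in all. TCACGTGA was in 3 of them (5.0%), those of Rab5a, Rab21 and Rab24, against 0.97% of 32851 RefSeq windows and 1.75% of the windows of genes tested. The 3 holders shared no direction, since Rab5a rose, Rab24 fell and Rab21 did not pass. CACGTG, the E-box contained in it, was in 6 windows of 60, against 7.15% of all and 9.56% of those of genes tested. Neither string is in the windows of Rab7, Rab9 or Rab31, which says only that these letters are not there. Both strands were searched also for TGANTCA, the AP-1 element (5.0% of Rab windows, 7.81% of all and 5.52% of those of genes tested). A match is a string of letters and not a shown binding site.

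Rab31, which works between the trans-Golgi and early endosomes, showed the largest early endosome change among those that passed. It stood at 127 and 132 CPM in unirradiated and 189.9 and 179 CPM in irradiated cells. Both irradiated values were well above both unirradiated ones, a 1.42-fold rise (0.51 ± 0.042, adjusted p = 9.39e-32). Its close relative Rab22a, of endosome sorting, had 118 and 117 CPM before and 122 and 127 CPM after, and did not pass (0.078 ± 0.047, adjusted p = 0.145). Rab22a did pass when only library size set the scale (0.14, adjusted p = 0.00736) and with a stricter filter (0.10, adjusted p = 0.0417).

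The Rab5 paralogs, which drive fusion of incoming vesicles, gave 2 rises and 1 gene that did not pass. Rab5b rose from 103 and 113 CPM to 131 and 129 CPM (0.27 ± 0.048, adjusted p = 3.83e-08). Rab5a had 85.3 and 87.8 CPM before and 97.5 and 94.6 CPM after (0.15 ± 0.053, adjusted p = 0.0084). Groups were apart in both genes, but the Rab5a call was lost without unirradiated replicate 1 (0.11, adjusted p = 0.115) and without irradiated replicate 1 (0.12, adjusted p = 0.0995). Rab5c had 189 and 187 CPM and 182 and 183 CPM and did not pass (-0.043 ± 0.039, adjusted p = 0.351), with a positive sign when only library size set the scale (0.016). Differences between paralogs were not tested.

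Rab14, which shuttles between early endosomes and the Golgi, fell from 210.3 and 220.3 CPM to 193 and 183 CPM (-0.20 ± 0.038, adjusted p = 9.48e-07), with the groups apart. Rab21, a carrier of integrins, did not pass (0.10 ± 0.057, adjusted p = 0.122) except when only library size set the scale (0.16, adjusted p = 0.0104) or the filter was stricter (0.13, adjusted p = 0.0419). Nor did Rab4a of the fast recycling route (0.12, adjusted p = 0.321) or Rab20, found on phagosomes (0.39, adjusted p = 0.117). Rab4b had 24 and 30 counts before and 10 and 31 after, with overlapping groups (-0.35, adjusted p = 0.609). Its level is uncertain, since 1280 of its exon bases are shared with Gm21983 on the same strand.

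Recycling genes gave 1 rise and 1 fall among 5 tested. Of all genes tested 30.4% rose and 30.3% fell, and the difference was not tested. Rab17, which sorts cargo in recycling endosomes of polarised epithelia (ENSMUSG00000026304, chr1:90958133-90969661, minus strand, GRCm38), had 13 and 16 counts before irradiation against 141 and 125 after it. That is 0.473 and 0.548 CPM against 4.74 and 4.71 CPM, a 9.16-fold rise with the groups far apart (3.20 ± 0.36, adjusted p = 3.11e-18). Among tested members this difference was exceeded only by that of Rab44, which had 2 counts before irradiation. The 6 epithelial markers summed to 36.5 to 38.4 CPM before and 69.9 to 75.7 CPM after, most of it Cdh1, and their part in the rise of Rab17 was not tested.

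Rab11a and Rab11b serve the slow recycling route. Rab11b fell from 86.2 and 80.7 CPM to 67.7 and 62.5 CPM (-0.36 ± 0.056, adjusted p = 8.43e-10), with no overlap. Rab11a had 60.6 and 62.0 CPM before and 57.7 and 58.5 CPM after and did not pass (-0.078 ± 0.062, adjusted p = 0.278). Rab35, of fast recycling and cytokinesis, and Rab15 did not pass (-0.052, adjusted p = 0.44 and -0.23, adjusted p = 0.597), and Rab35 had a positive sign when only library size set the scale (0.0072). Rab25, an epithelial relative of Rab11, was below the filter with 3 and 3 counts before and 5 and 20 after.

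Late endosome and lysosome genes went both ways. Of 7 tested, 3 rose (42.9%), 2 fell (28.6%) and 2 did not pass, with a median of 0.035. Over all genes 30.4% rose and 30.3% fell, and the difference was not tested. Rab7, which brings late endosomes to fuse with lysosomes, rose from 224 and 219 CPM to 269 and 257 CPM (0.25 ± 0.036, adjusted p = 3.65e-11). Rab9, of the return from late endosomes to the Golgi, rose from 39.7 and 41.2 CPM to 53.0 and 57.0 CPM (0.44 ± 0.070, adjusted p = 1.05e-09). Rab32, of lysosome-related organelles, rose from 31.3 and 33.3 CPM to 38.6 and 44.0 CPM (0.35 ± 0.080, adjusted p = 3.08e-05). In each of the 3 every irradiated value exceeded every unirradiated one.

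Rab7b showed the lowest log2 difference of all tested Rab genes. It is a relative of Rab7 that acts between endosomes and the trans-Golgi (ENSMUSG00000052688, chr1:131688695-131715439, plus strand, GRCm38). Its 2791 and 2915 counts in unirradiated cells stood against 1618 and 1297 in irradiated cells. On the scaled level this was 102 and 99.9 CPM against 54.4 and 48.9 CPM, a 1.95-fold fall with well separated groups (-0.96 ± 0.056, adjusted p = 8.94e-64). Rab7 and Rab7b thus moved in opposite directions. Of their summed length-scaled level, Rab7b made up 20.4% and 20.5% before and 10.2% and 9.7% after.

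Rab24, linked to autophagosomes, had 41.6 and 43.1 CPM before and 38.9 and 35.3 CPM after (-0.19 ± 0.077, adjusted p = 0.0237). The groups were apart, but the call was lost without unirradiated replicate 2 (-0.17, adjusted p = 0.112), without irradiated replicate 2 (-0.13, adjusted p = 0.253), in DESeq2 (adjusted p = 0.106), with library size alone (0.132) and with a stricter filter (0.0516). Rab24 shares 1258 exon bases with Prelid1 on the other strand, which held 23447 counts against 4494, so its level is uncertain. Rab12 and Rab29, a partner of the kinase LRRK2, did not pass (0.035, adjusted p = 0.594 and 0.012, adjusted p = 0.966). Rab38, a melanosome relative of Rab32, had 0 and 0 counts before and 4 and 0 after and was not tested.

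Secretory genes formed the largest class, with 21 tested, of which 5 rose, 8 fell and 8 did not pass, and a median of -0.078. That is 23.8% higher and 38.1% lower, against 30.4% and 30.3% of all genes. All 6 calls among the 8 with at least 50 CPM were falls, a level where 48.4% of all genes fell and 31.2% rose. Below that level 5 of 13 rose and 2 fell. Of all genes at 5 to 50 CPM, 28.7% rose and 34.7% fell, and of those under 5 CPM 31.7% and 6.84%. Whether secretory genes differ from other genes of like level was not tested. Rab6a and Rab6b run retrograde transport at the Golgi. Rab6a fell from 94.0 and 95.5 CPM to 73.7 and 67.5 CPM (-0.42 ± 0.054, adjusted p = 3.54e-14). Rab6b fell from 106 and 104 CPM to 77.0 and 77.9 CPM (-0.44 ± 0.053, adjusted p = 5.81e-16). Neither gene's groups overlapped. Rab6a shares 708 exon bases with Mrpl48 on the other strand, whose counts came to 22.1% of its own.

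Rab1a and Rab1b carry cargo from the endoplasmic reticulum to the Golgi. Rab1b fell from 109 and 118 CPM to 99.2 and 97.9 CPM (-0.21 ± 0.050, adjusted p = 1.03e-04), with the groups apart. Rab1a had 183 and 181 CPM before and 173 and 169 CPM after (-0.090 ± 0.040, adjusted p = 0.0414), a call near the threshold. It was lost without unirradiated replicate 1 (adjusted p = 0.0719), unirradiated replicate 2 (0.0582) or irradiated replicate 2 (0.188). DESeq2 (0.121), RLE factors (0.0582), library size alone (0.516), a stricter filter (0.16) and the replicate block (0.06) did not call it either. Rab2a, of the same step, and Rab18, of lipid droplets, did not pass (0.079, adjusted p = 0.143 and -0.077, adjusted p = 0.131). Rab2a passed as higher when only library size set the scale (0.14, adjusted p = 0.00737) and with a stricter filter (0.11, adjusted p = 0.0413).

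Rises at the Golgi came from genes below 50 CPM. Rab30, a Golgi GTPase, had 8.66 and 9.39 CPM before and 17.7 and 16.9 CPM after, a 1.92-fold rise (0.94 ± 0.14, adjusted p = 2.64e-11). Rab33b, which binds the autophagy protein ATG16L1, rose from 22.7 and 21.6 CPM to 28.7 and 27.1 CPM (0.33 ± 0.10, adjusted p = 0.00139). The groups were apart in both genes. Its paralog Rab33a had 17 and 12 counts before and 33 and 50 after (1.53 ± 0.54, adjusted p = 0.00872). That call was lost without unirradiated replicate 2 (1.25, adjusted p = 0.0634) and without irradiated replicate 2 (1.10, adjusted p = 0.254).

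Rab43, a Golgi member, had 63 and 67 counts before and 140 and 98 after (0.87 ± 0.28, adjusted p = 0.00314), and lost the call without irradiated replicate 1 (0.68, adjusted p = 0.0979). Its level is uncertain because 4164 exon bases are shared with Gm45140 on the same strand. Rab2b did not pass (0.43, adjusted p = 0.137) and shares 195 exon bases with Tox4, a far more abundant gene on the other strand. Rab39, with 2 and 0 counts before and 7 and 5 after, and Rab39b, with 7 and 4 and 3 and 1, were not tested. The depth-scaled ratio of Rab39 was 6.03, with an exact 95% interval from counting error alone of 1.34 to 55.5.

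Of 10 exocytic genes tested, 4 were lower and 1 was higher. The shares over all genes were 30.3% lower and 30.4% higher, and the difference was not tested. Rab27b, which docks secretory granules and multivesicular bodies at the plasma membrane, fell from 51.5 and 48.4 CPM to 30.1 and 30.8 CPM, or 1.64-fold (-0.71 ± 0.077, adjusted p = 1.25e-19). Its groups were far apart. Rab27a was scarce, with 90 and 92 counts before and 74 and 47 after, and did not pass (-0.59 ± 0.30, adjusted p = 0.0785), though it reached the threshold without irradiated replicate 1 (-0.86, adjusted p = 0.05). Rab3b, of regulated exocytosis, fell from 42.2 and 45.1 CPM to 28.5 and 33.3 CPM (-0.50 ± 0.080, adjusted p = 1.12e-09). Its paralogs Rab3a and Rab3d did not pass (-0.049, adjusted p = 0.853 and 0.018, adjusted p = 0.869), and Rab3c had 0 and 0 counts before and 1 and 1 after. Rab3a shares 29 exon bases with Mpv17l2 on the other strand.

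Rab10 and Rab8a deliver vesicles to the plasma membrane in many cell types. Rab10 fell from 199 and 193 CPM to 172 and 168 CPM (-0.21 ± 0.040, adjusted p = 4.76e-07). Rab8a fell from 98.4 and 98.4 CPM to 86.1 and 88.3 CPM (-0.17 ± 0.052, adjusted p = 0.00181), and by less when only library size set the scale (-0.12, adjusted p = 0.0442). Both genes' groups were apart, and Rab8b did not pass (-0.12, adjusted p = 0.292). Rab13, tied to tight junctions, was the exocytic gene that rose, from 27.3 and 33.5 CPM to 40.3 and 40.6 CPM (0.41 ± 0.082, adjusted p = 1.69e-06). Its unirradiated libraries lay apart from each other, and the value was smaller without unirradiated replicate 1 (0.26, adjusted p = 0.0182). Rab37 had 8 and 18 counts before and 33 and 28 after and did not pass (1.24 ± 0.59, adjusted p = 0.0604). Its value was 1.87 without unirradiated replicate 2, and it passed with library size alone (adjusted p = 0.0488) and with a stricter filter (0.0135). In all of these fits Rab37 entered the test only through its irradiated libraries, so the passes are no support for a change.

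The remaining class of 8 genes holds those with cilium or other roles. Rab28, linked to the photoreceptor cilium, fell from 62.7 and 64.3 CPM to 38.2 and 37.5 CPM, or 1.68-fold (-0.75 ± 0.068, adjusted p = 4.09e-27). Rab23, a negative regulator of Hedgehog signalling at the cilium, fell from 65.0 and 61.2 CPM to 40.0 and 41.6 CPM, or 1.55-fold (-0.63 ± 0.067, adjusted p = 3.09e-20). Rab34, which takes part in building cilia, fell from 97.1 and 97.2 CPM to 79.0 and 78.0 CPM (-0.31 ± 0.053, adjusted p = 3.05e-08). The groups were apart in each of these genes, which are described together after their values had been seen.

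Rab36, a relative of Rab34, had 10.7 and 11.3 CPM before and 12.4 and 16.9 CPM after (0.41 ± 0.14, adjusted p = 0.00582). Irradiated replicate 2 was the high one, and the value was 0.16, adjusted p = 0.429 without it and 0.61, adjusted p = 3.43e-04 without irradiated replicate 1. The call was also lost without unirradiated replicate 1 (0.35, adjusted p = 0.0637) and in DESeq2 (adjusted p = 0.0506). Rab40c, of a ubiquitin ligase, did not pass (0.10, adjusted p = 0.428). Rab44, a large Rab with EF hands, had 0 and 2 counts before and 34 and 19 after, and passed the filter only through the irradiated libraries, so its call is no support for a change. The depth-scaled ratio was 26.7 with an exact 95% interval of 7.02 to 226 from counting error alone. Its fitted log2 value, which depends on the prior count, was 4.56, and 7.71 without unirradiated replicate 2. Rab40b had 0 and 0 counts before and 6 and 1 after, a ratio of 2.35 against a floor of 3 counts over the unirradiated group. That ratio takes the irradiated counts as exact and rests mostly on irradiated replicate 1, so it is no lower bound. Rab42 had 9 and 10 counts before and 23 and 7 after, and neither Rab40b nor Rab42 was tested.

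Levels of different genes were compared per length, as TPM (counts per merged exon length, scaled to a fixed total per library). In unirradiated cells Rab5c led with 304 ± 3.63 TPM (SD, n = 2), followed by Rab7 with 301 ± 5.93 TPM, which lay within their spread of each other. Rab10 (198 ± 4.89 TPM) and Rab2a (191 ± 2.83 TPM) came next and were also close. In irradiated cells Rab7 was first with 369.8 ± 18.1 TPM, followed by Rab5c with 305 ± 3.52 TPM and Rab2a with 209 ± 8.14 TPM. Rab31 went from rank 8 to rank 4, where it did not differ from Rab10 beyond their spread, and Rab7b from rank 14 to rank 26 of 56.

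Rab messages summed to 3203 and 3208 TPM in the unirradiated and 3352 and 3227 TPM in the irradiated libraries. Of this sum, early endosome genes held 24.6% and 24.7% before and 27.1% and 27.2% after. Late endosome and lysosome genes held 22.0% and 21.7% before and 23.9% and 23.7% after. Both shares were higher in either irradiated library than in either unirradiated one. Secretory genes held 38.8% and 38.9% before and 36.1% and 36.3% after, and recycling genes 6.81% and 6.78% before and 6.6% and 6.5% after, both lower in the irradiated libraries. The remaining class held 7.93% and 7.88% before and 6.31% and 6.37% after, also without overlap. These shares are a description and were not tested.

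**Figure D3:**
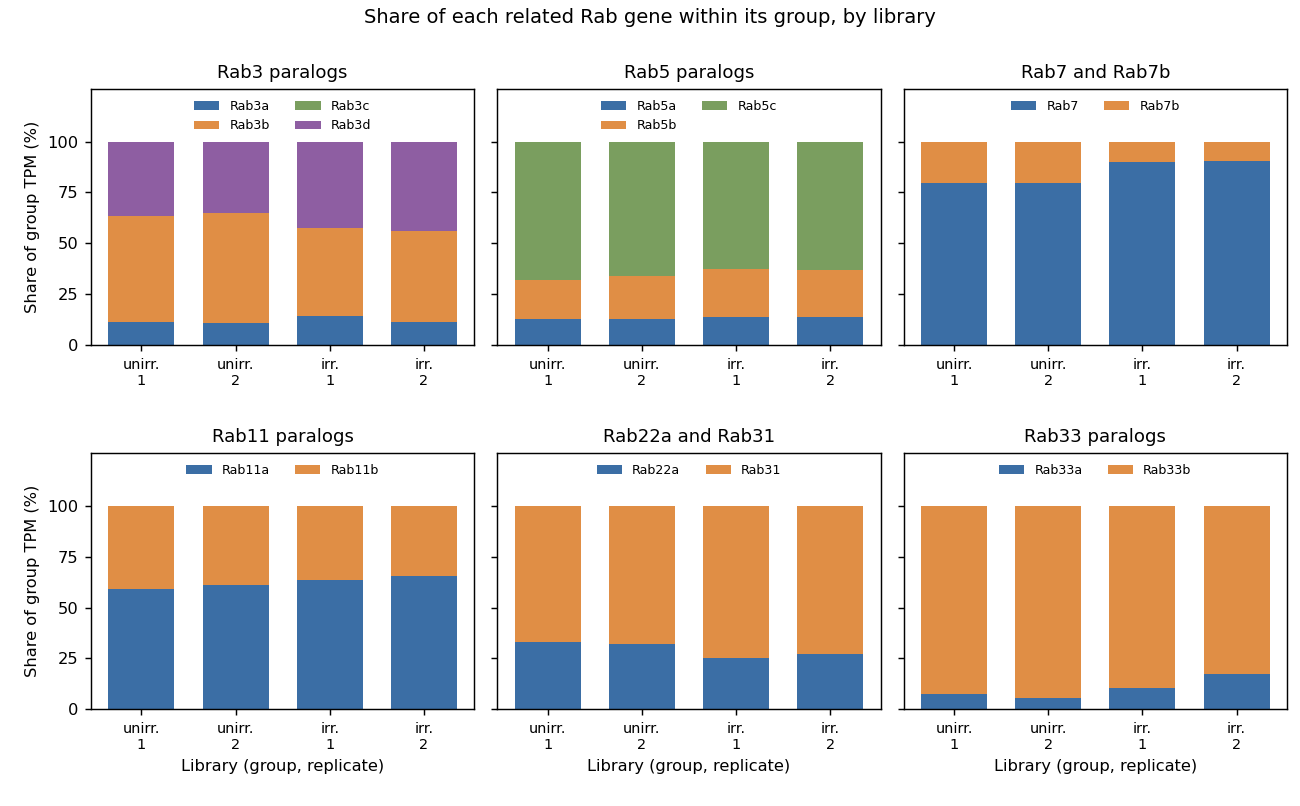
Share of the summed TPM of 6 groups of related Rab genes held by each gene, in each library (stacked bars, linear axis in percent). Rab7b holds 20.4% and 20.5% of its pair before irradiation and 10.2% and 9.7% after it. Groups not drawn include the Rab1 pair, whose shares did not overlap, and the Rab2, Rab4, Rab6, Rab8 and Rab27 pairs, whose shares overlapped.

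The share held by each paralog moved by unlike amounts in the groups analysed. Rab33a held 7.67% and 5.5% of its pair before and 10.6% and 17.5% after. Rab2a held 98.4% and 98.8% of its pair before and 98.5% and 97.9% after, with overlapping groups. Of Rab5 message, Rab5c held 68.0% and 66.2% before and 62.5% and 63.2% after. Of Rab22a and Rab31 together, Rab31 held 67.1% and 68.1% before and 74.7% and 72.7% after. Rab3b held 51.8% and 53.9% of Rab3 message before and 43.2% and 45.0% after. The groups did not overlap in Rab5c, Rab31, Rab3b or Rab33a. Rab11b held 41.0% and 38.8% of its pair before and 36.4% and 34.3% after. Rab6a held 54.4% and 55.4% of its pair before and 56.3% and 53.9% after, with overlapping groups, while both Rab6 genes fell.

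Partner genes were read against the same background as the members, with a median of 0.012 over all genes. Of all genes tested, 60.7% were called, 30.4% higher and 30.3% lower. No list was tested as a set. Genes that add the lipid tail or lift Rab proteins off membranes gave 4 falls and 2 rises among 8 tested (median -0.11). Rabggta, the alpha subunit of the Rab geranylgeranyl transferase, fell from 33.2 and 34.7 CPM to 15.5 and 19.0 CPM (-0.98 ± 0.10, adjusted p = 1.22e-22). Rabggtb, the beta subunit, fell from 109 and 111 CPM to 77.3 and 81.7 CPM (-0.47 ± 0.052, adjusted p = 1.21e-18). The escort protein gene Chml fell from 42.3 and 45.9 CPM to 29.5 and 27.1 CPM (-0.64 ± 0.081, adjusted p = 1.83e-14). The groups were apart in all 3, and their calls held in every fit with a library left out. Calls for the escort protein gene Chm (0.14, adjusted p = 0.0172) and for the dissociation inhibitor gene Gdi2 (-0.074, adjusted p = 0.0318) did not. Without irradiated replicate 2 the adjusted p was 0.245 for Chm and 0.261 for Gdi2, and the list held 3 called genes. Without unirradiated replicate 1 it was 0.151 for Chm. Gdi2 shares 1184 exon bases with Fam208b on the other strand and was named after its value was seen.

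Among 38 tested exchange factors there were 15 rises and 13 falls (median 0.090). The rises include Als2cl (0 and 6 counts before, 15 and 18 after), which entered the test only through its irradiated libraries. The same holds for Dennd2d (20 and 9 counts before, 55 and 45 after), as its 9 counts in unirradiated replicate 2 were too few for the filter. RIN proteins activate Rab5, and their genes diverged. Rin1 fell from 201 and 198 CPM to 54.7 and 60.2 CPM (-1.80 ± 0.048, adjusted p = 1.69e-294). Rin2 rose from 36.0 and 40.6 CPM to 77.9 and 74.9 CPM (1.00 ± 0.064, adjusted p = 9.72e-53). The groups were far apart in both genes. St5, a DENN-domain gene, rose (1.37, adjusted p = 3.97e-24), while Sbf2 (-1.14, adjusted p = 2.26e-85) and Ankrd27, whose product acts on Rab21 (-0.58, adjusted p = 8.99e-21), fell. Genes of the Rab7 exchange factor, named after their values were seen, did not pass, with Mon1a at -0.18, adjusted p = 0.363, Mon1b at 0.078, adjusted p = 0.597 and Ccz1 at -0.12, adjusted p = 0.0517. Ccz1 passed without unirradiated replicate 1 (-0.19, adjusted p = 0.0123) and with no filter (-0.14, adjusted p = 0.0331).

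GTPase-activating proteins gave 17 rises and 9 falls among 38 tested (median 0.075), against 30.4% and 30.3% of all genes. Among the rises, Tbc1d30 (0 and 0 counts before, 13 and 17 after) and Sgsm1 (0 and 4, then 25 and 17) entered the test only through their irradiated libraries. The count of rises is therefore a description only. Tbc1d2, whose product Armus inactivates Rab7, fell from 43.0 and 42.1 CPM to 23.1 and 25.2 CPM (-0.82 ± 0.085, adjusted p = 5.93e-21). Tbc1d20, which acts on Rab1, rose from 77.3 and 75.6 CPM to 119 and 119 CPM (0.64 ± 0.052, adjusted p = 1.46e-33). Neither gene's groups overlapped. Tbc1d7, better known as a subunit of the TSC complex, and Tbc1d16 fell (-0.78, adjusted p = 1.43e-08 and -0.60, adjusted p = 1.99e-05). Tbc1d24 and Tbc1d17 rose (0.70, adjusted p = 3.64e-05 and 0.65, adjusted p = 1.41e-08). Tbc1d17 shares 89 exon bases with the more abundant Akt1s1 on the other strand.

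Early endosome effectors gave 5 rises and 4 falls of 12 (median -0.071). Appl1, a Rab5 effector in signalling endosomes, fell from 116 and 112 CPM to 65.7 and 69.4 CPM (-0.75 ± 0.053, adjusted p = 3.80e-44). Its sister Appl2 rose (0.31, adjusted p = 1.02e-06). Pik3c3 and Pik3r4, subunits of the kinase that makes phosphatidylinositol 3-phosphate, rose (0.62, adjusted p = 6.50e-16 and 0.42, adjusted p = 1.06e-08). Vps8, of the CORVET tether, fell (-0.27, adjusted p = 1.06e-04). The Rabep2 value (-0.40, adjusted p = 7.87e-04) lost its call without unirradiated replicate 1 (-0.30, adjusted p = 0.0735) and without irradiated replicate 1 (-0.21, adjusted p = 0.183), and was -0.64 without irradiated replicate 2.

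Recycling effectors gave 5 rises and 1 fall of 12 (median 0.076). One of those rises, Myo5b (0 and 1 counts before, 23 and 13 after), entered the test only through its irradiated libraries. The Rab11 adaptor gene Rab11fip1 rose from 50.7 and 43.0 CPM to 77.5 and 75.7 CPM (0.71 ± 0.061, adjusted p = 6.79e-30), and Rab11fip5 rose as well (0.25, adjusted p = 1.50e-06). Rab11fip4 (0.57, adjusted p = 0.00985) lost its call without unirradiated replicate 1 (0.27, adjusted p = 0.345), without irradiated replicate 1 (0.46, adjusted p = 0.124) and in DESeq2 (adjusted p = 0.0673), and was 0.93 without unirradiated replicate 2. Micall1, a scaffold of recycling tubules, fell (-0.24, adjusted p = 0.00105).

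Late endosome effectors gave 7 rises and 3 falls of 13 (median 0.13), against 30.4% and 30.3% of all genes. Vps41, of the HOPS tether that joins late endosomes to lysosomes, rose from 80.6 and 81.4 CPM to 146 and 137 CPM (0.81 ± 0.049, adjusted p = 3.41e-58). Plekhm1, an adaptor of Rab7 and HOPS, rose from 57.8 and 59.8 CPM to 92.3 and 86.7 CPM (0.61 ± 0.056, adjusted p = 4.28e-26). Plin3, also described as the Rab9 effector TIP47, rose (0.55, adjusted p = 6.52e-39). The groups were apart in all of these. Rilp, which links Rab7 to dynein and was named after its value was seen, had 57 and 57 counts before and 138 and 146 after (1.33 ± 0.27, adjusted p = 2.74e-06). Fyco1, which links Rab7 to kinesin, and Rubcn, a brake on autophagosome maturation, fell (-0.48, adjusted p = 1.30e-16 and -0.30, adjusted p = 3.25e-09). Rubcn shares 171 exon bases with Fyttd1 on the other strand. The Osbpl1a call (-0.18, adjusted p = 0.0335) was lost without unirradiated replicate 2 (-0.059, adjusted p = 0.63), without irradiated replicate 2 (-0.14, adjusted p = 0.209), in DESeq2 (adjusted p = 0.168), with library size alone (0.174) and with a stricter filter (0.071), and its value was -0.31 without unirradiated replicate 1.

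Secretory effectors gave 10 falls and 8 rises of 25 (median -0.084). Ocrl, an inositol phosphatase bound by several Rab proteins, fell from 116 and 117 CPM to 72.3 and 70.5 CPM (-0.70 ± 0.053, adjusted p = 1.81e-39). The exocyst genes Exoc6 and Exoc5 fell (-0.45, adjusted p = 1.37e-04 and -0.37, adjusted p = 2.47e-09). Unc13d, the Rab27 effector Munc13-4, rose from 32.9 and 32.4 CPM to 47.7 and 49.8 CPM (0.58 ± 0.076, adjusted p = 1.78e-13). Groups were apart in both Ocrl and Unc13d. Mical1 and Gorasp1 rose too (0.79, adjusted p = 2.51e-16 and 0.62, adjusted p = 2.10e-06). Exons of Mical1, Gorasp1 and Exoc5 overlap those of Smpd2, Wdr48 and Ap5m1 on the other strand, with 59.7%, 439% and 22.6% as many counts, so these values are uncertain.

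Of 6 tested Rab-like GTPases, which fall outside the naming rule, 5 fell and 0 rose (median -0.35). Over all genes 30.3% fell and 30.4% rose, and the difference was not tested. Rabl6 fell from 123 and 125 CPM to 95.7 and 97.7 CPM (-0.36 ± 0.049, adjusted p = 2.32e-12), and Rabl3 and Rabl2 fell as well (-0.44, adjusted p = 0.00136 and -0.34, adjusted p = 5.22e-04). Ift22 and Ift27, of the intraflagellar transport complex and named after their values were seen, were lower (-0.29, adjusted p = 0.00909 and -0.20, adjusted p = 0.0417). Without unirradiated replicate 2 neither passed (adjusted p = 0.0558 and 0.113), and Ift27 did not pass without unirradiated replicate 1 (0.0838) or irradiated replicate 2 (0.213) either.

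**Figure D4:**
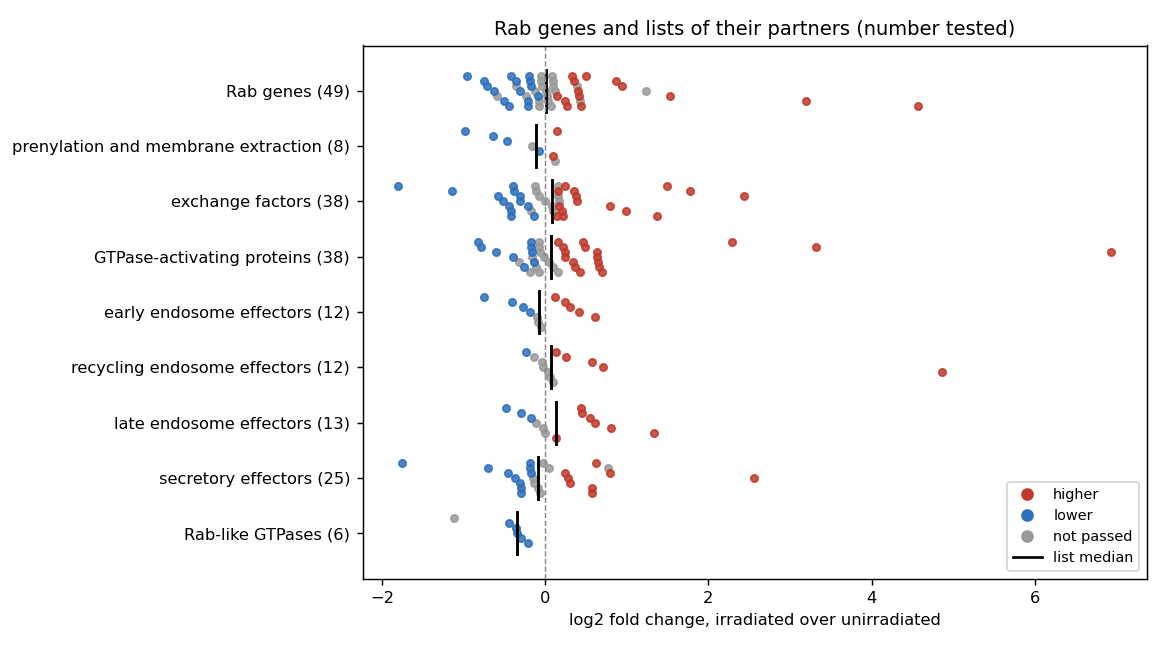
Log2 fold change of each tested gene in the Rab set and in 8 lists of Rab partners and relatives (points; red, higher; blue, lower; grey, not passed), with the median of each list as a black bar and the number tested in brackets. List medians lie between -0.35 and 0.13, and rises and falls both occur in every list except the Rab-like GTPases.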

How the data were processed

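The authors deposited 1 table of raw counts, whole numbers with 1 column per library. Tools listed in the submitters' processing notes are HTSeq, DESeq2, HISAT and HISAT2, with the build mm10. Their versions and roles, the annotation release and the strand setting were not given in the sources used here. Without strand, reads of genes that overlap on opposite strands cannot be told apart; exons of 19 members overlap another annotated gene. Groups follow the sample titles; 1 unirradiated library carries the other's number in its description, and the title was followed.

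Counts were fitted with edgeR 4.0.16 in R 4.3.3 (TMM, filterByExpr, robust glmQLFit and glmQLFTest, irradiation as the sole term), with Benjamini-Hochberg adjustment over 15298 genes. The fit was tested on simulated data. CPM (on TMM-scaled library sizes), TPM and log2 differences were computed here; the SE is the log2 difference over the root of the test's F. Libraries of a group differed beyond sampling noise (mean chi-square per gene 3.38 and 4.73). Every Rab gene could be named; of each partner list, the 3 called genes with the largest change in each direction at a mean of at least 5 CPM, except where a result is not reported here. Members and lists were chosen with earlier results of these data known. Alternatives were DESeq2 1.42.0, RLE factors, library size alone, no filter, a stricter filter, a replicate block, each library left out and a 1.5-fold minimum.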

Additional observations from a re-analysis of the deposited data

How the results depend on the processing

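No called Rab gene changed direction under any alternative, and every count of called Rab genes stayed within 1.5 times the value given except under the 1.5-fold minimum, which by construction fewer genes pass. That minimum left 5 Rab genes higher and 4 lower: 0 of early endosomes, 1 recycling, 1 of late endosomes and lysosomes and 4 secretory, with 3 of the remaining class. Of partners it left 2 genes of prenylation and membrane extraction, 8 exchange factors, 11 GTPase-activating proteins, 0 Rab-like GTPases, and 2 early endosome, 2 recycling, 3 late endosome and 5 secretory effectors. Among the rises counted here, Rab44, Als2cl, Dennd2d, Tbc1d30, Sgsm1 and Myo5b entered the test only through their irradiated libraries. DESeq2 called 3 genes of prenylation and membrane extraction; the cause was not tested.

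With 1 library left out, 12 to 14 Rab genes were higher and 13 to 16 lower. Prenylation and membrane extraction then held 3 to 6 called genes. Library size alone gave 18 Rab genes higher and 13 lower.

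Some members that did not pass changed sign. With 1 library left out, log2 values ran from -0.044 to 0.10 for Rab12, from -1.5 to 0.29 for Rab4b, from -0.33 to 0.29 for Rab29, from -0.16 to 0.043 for Rab3a, from -0.10 to 0.12 for Rab3d and from -0.56 to 0.16 for Rab15. Rab35 (0.0072), Rab3a (0.0099) and Rab5c (0.016) did so with library size alone, and Rab29 (-0.0087) and Rab3d (-0.0033) without a filter.

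The labels do not say that replicate numbers pair libraries, and deviations from the group means of the libraries numbered 1 were not correlated (r = -0.0041 across genes, which are not independent). A replicate block gave 14 Rab genes higher and 14 lower, with the Rab1a and Gdi2 calls lost and Rab29 at -0.00090. Low counts limit the precision of the members below 5 CPM, whose SE reached 0.962 on the log2 scale in Rab44.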
